A study of Mus musculus with 6 samples.

Results

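A set of genes that define germ cell identity or the pluripotent state of fetal germ cells were followed in ovaries of newborn mice: Ddx4, Dazl, Dnd1, Nanos3, Pou5f1, Nanog, Sall4, Lin28a, Prdm1 and Tfap2c. They were chosen by name as the 10 rows with these symbols among the 47122 gene models of the deposited expression table, and all 10 were present as protein-coding genes. The ovaries were collected at 1 day post partum (dpp), with 3 samples labelled wild type (WT) and 3 labelled BCAS2 cKO, in which Bcas2, a subunit of a splicing complex, was knocked out in oocytes (conditional knockout, cKO). Total RNA of the ovary was sequenced, so values combine oocytes with the somatic cells around them. A second description label mentions granulosa cells, whereas the titles, the tissue label and the design text give ovary. The Cre line, the strain and whether a sample is 1 animal or a pool are details the sources used here do not give. The replicate spread behind each p-value may therefore be technical. In bulk ovary, fewer oocytes and less RNA per oocyte cannot be told apart.

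Primordial germ cells are set aside in the early embryo by transcription factors such as PRDM1 and TFAP2C, and they keep a pluripotency network around POU5F1, NANOG, SALL4 and LIN28A while they migrate to the gonad. After arrival they switch on RNA regulators such as DDX4 and DAZL, female germ cells enter meiosis, and the pluripotency network is turned down before birth. DND1 and NANOS3 are RNA-binding proteins that protect germ cells from death and from drifting to other fates. The 4 RNA regulators (Ddx4, Dazl, Dnd1, Nanos3) are described first and are set against the 6 fetal factors, that is 4 pluripotency factors (Pou5f1, Nanog, Sall4, Lin28a) and 2 specification factors (Prdm1, Tfap2c).

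Promoter sequences are shown for 3 members that span the range of levels, to set Dazl, the highest member, beside Pou5f1 and its well-known target Nanog, which is close to the lowest. Each is the 250 bases before a RefSeq start site on GRCm38.p6, 5′ to 3′ on the gene's strand, with CpG dinucleotides in capitals. The windows are chr17:50293621-50293870 on the minus strand for Dazl, chr17:35505782-35506031 on the plus strand for Pou5f1 and chr6:122707239-122707488 on the plus strand for Nanog.
Dazl: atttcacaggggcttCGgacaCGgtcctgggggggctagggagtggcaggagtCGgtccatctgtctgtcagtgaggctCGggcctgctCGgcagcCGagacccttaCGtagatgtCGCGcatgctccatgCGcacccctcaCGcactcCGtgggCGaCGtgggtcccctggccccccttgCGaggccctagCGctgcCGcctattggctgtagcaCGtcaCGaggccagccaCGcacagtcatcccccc
Pou5f1: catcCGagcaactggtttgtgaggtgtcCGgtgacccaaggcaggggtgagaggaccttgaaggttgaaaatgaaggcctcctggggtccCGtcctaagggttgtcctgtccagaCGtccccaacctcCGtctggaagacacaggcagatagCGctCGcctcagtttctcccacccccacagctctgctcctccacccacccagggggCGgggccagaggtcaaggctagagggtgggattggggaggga
Nanog: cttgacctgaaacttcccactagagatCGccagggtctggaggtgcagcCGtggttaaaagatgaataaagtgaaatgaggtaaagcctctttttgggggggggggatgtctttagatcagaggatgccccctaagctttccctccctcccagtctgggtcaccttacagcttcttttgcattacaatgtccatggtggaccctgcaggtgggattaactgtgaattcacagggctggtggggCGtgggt
The Dazl window held 20 CpG dinucleotides, the Pou5f1 window 8 and the Nanog window 3, against a median of 6 over 32851 start sites in the same table. As many as in Dazl were found in 17.9% of those windows.

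Sequences were found for 7 members, and Dnd1, Sall4 and Tfap2c are named only. The Ddx4 window (chr13:112652311-112652560, minus strand) held 31 CpG dinucleotides, and 165 of its bases lie in exons of other Ddx4 transcripts in the GENCODE M21 annotation of the same build. Lin28a held 7, Prdm1 15, Nanos3 3, and the second start sites of Pou5f1 and Nanog held 6 and 2. Among the RNA regulators Nanos3 held as few as Nanog, and among the fetal factors Prdm1 held the most. Methylation was not measured.

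A set of 3 short motifs was searched on both strands of these windows. The core of the octamer bound by POU factors, TTTGCAT (reverse ATGCAAA), was found in Nanog alone among the 7, 75 bases before its first start site, and in 4.12% of all windows.
Nanog octamer: cagcttctTTTGCATtacaatgt
The capitals mark the octamer core, which overlaps neither of the other motifs. An E2F motif, TCCCGC (reverse GCGGGA), lay 136 bases before the Ddx4 start site and in 16.9% of all windows. An E-box, CACGTG, lay 29 bases before the Ddx4 start site and in 6.02% of all windows. Such matches describe letters in a window and do not show binding.

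Levels are given as FPKM, in which read numbers are divided by gene length and by a library size, so they can be compared between genes. The library size used was close to the sum of reads but not equal to it. Averaged over the 6 libraries, the order from high to low was Dazl, Ddx4, Pou5f1, Dnd1, Lin28a, Sall4, Nanos3, Prdm1, Nanog and Tfap2c, and the first lay 1224-fold above the last. Neighbours in this order did not overlap in either group, except for 3 pairs. Dnd1 and Lin28a overlapped in WT only, while Sall4 with Nanos3 and Nanos3 with Prdm1 overlapped in both groups. The fetal factors were not uniformly low: Pou5f1 ranked above both Dnd1 and Nanos3, which belong to the RNA regulators.

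**Figure D1:**
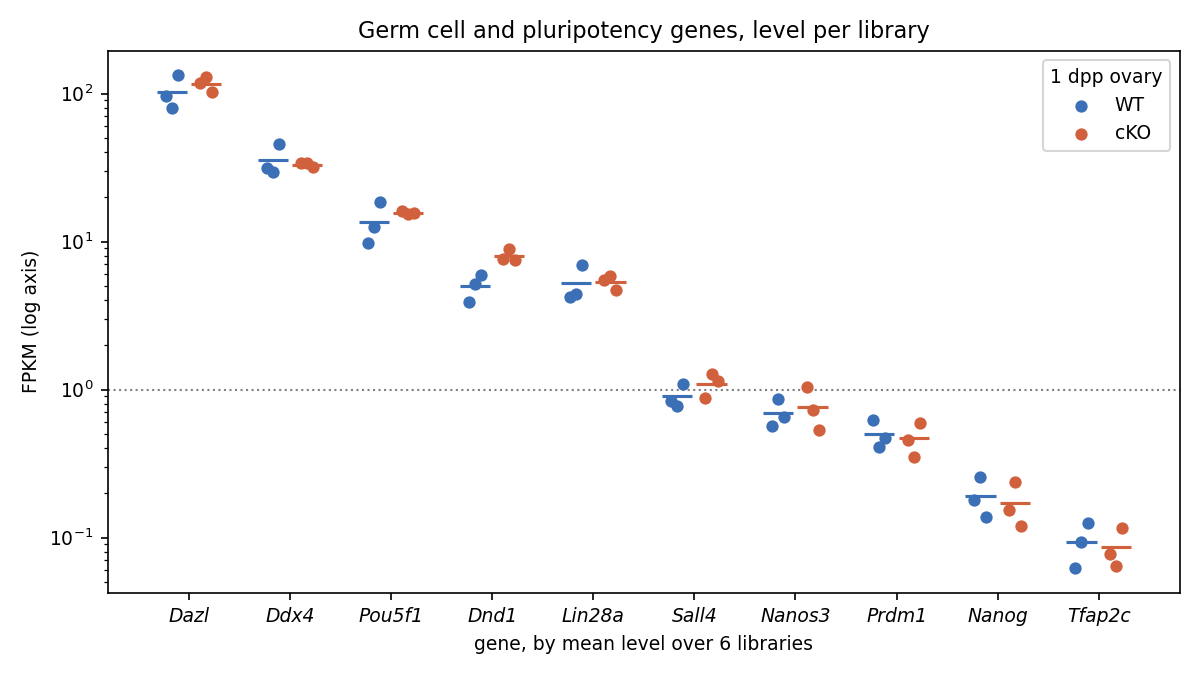
FPKM of the 10 genes (log axis) in each ovary library, with WT in blue, cKO in orange and bars at the group means. Points left to right are replicates 1 to 3, and the dotted line marks 1 FPKM, the level used to decide which genes were tested. Levels run from Dazl, at 79.9 to 132.6 FPKM, to Tfap2c, at 0.0620 to 0.125 FPKM, and the 2 groups separate for Dnd1 only.

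In each library the 4 RNA regulators together outweighed the 6 fetal factors. Their summed level was 132.2, 115.2 and 184.5 FPKM in WT replicates 1, 2 and 3 and 160.1, 173.7 and 142.2 FPKM in cKO replicates 1, 2 and 3. The fetal factors summed to 15.7, 18.4 and 27.3 FPKM in WT and to 23.1, 23.1 and 22.3 FPKM in cKO. The ratio of the sums averaged 7.14 ± 1.12 for WT and 6.95 ± 0.569 for cKO (SD, n = 3 each), with overlapping groups. Pou5f1 alone made up 62.2% to 70.1% of the fetal sum in the 6 libraries.

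The comparison of cKO with WT asks whether germ cell identity genes differ when oocytes lack Bcas2. The level of Bcas2 was 54.5, 37.5 and 35.7 in WT and 18.9, 21.9 and 18.3 in cKO (FPKM), so every cKO library was below every WT library, a log2 fold change of −1.05 (SE 0.17, limma adjusted p = 0.955). Genes with at least 1 FPKM in at least 3 libraries were tested on log2(FPKM + 1), a scale that understates changes of low genes. Of the 10 members 6 were tested, 0 rose and 0 fell at a limma adjusted p under 0.05, and the same held for all 14589 tested genes (0.00% called). At an unadjusted p under 0.05 there was 1 member, Dnd1, against 443 of all genes (3.04%). The share with a higher level in cKO at that unadjusted threshold, as for Dnd1, was 1.89%. Limma-voom, run on reads recovered from the values, called 0 genes and had 381 below the unadjusted threshold. Groups did not overlap for 1 of the 6, against 7.88% of all tested genes in either direction and 4.20% with cKO above WT. The median log2 fold change of the 6 was 0.17, against −0.01 over all tested genes.

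**Figure D2:**
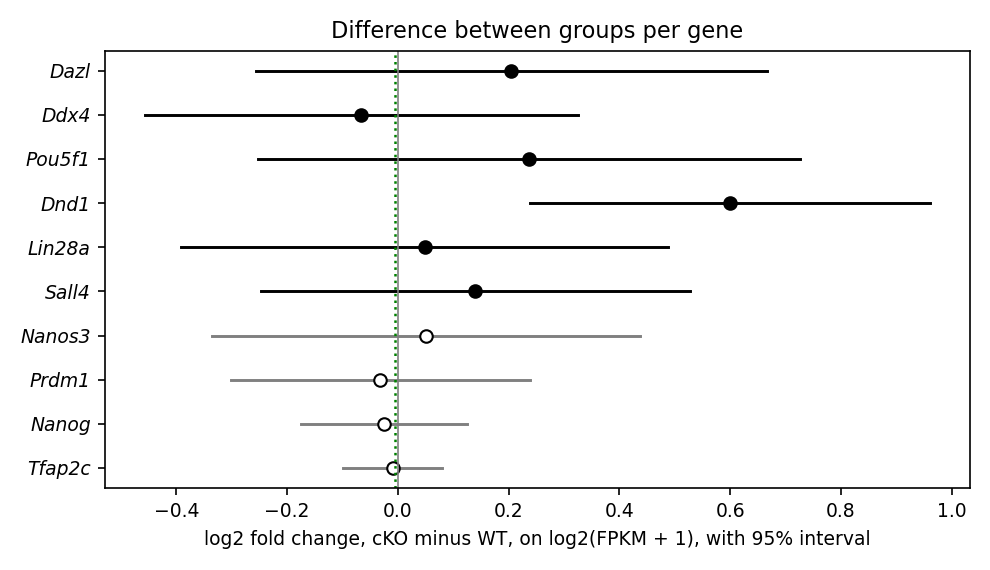
Log2 fold change, cKO minus WT, on the log2(FPKM + 1) scale with 95% intervals from limma. Filled points are the 6 tested genes and open points the 4 below the level filter, taken from the fit without that filter. The green dotted line is the median of all tested genes. Dnd1, at 0.60, is the only gene whose interval does not include 0, and its adjusted p was 0.955.

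Dnd1 had the largest difference among the 6 tested members. The protein binds U-rich mRNA ends, works with NANOS proteins and the CCR4-NOT deadenylase, and its loss empties the gonad of germ cells. Its level was 3.91, 5.14 and 5.92 FPKM in WT replicates 1, 2 and 3 and 7.64, 8.86 and 7.53 FPKM in cKO. All 3 cKO libraries lay above all 3 WT libraries. The means were 4.99 ± 1.02 and 8.01 ± 0.736 FPKM (SD, n = 3 each), a ratio of 1.61. The log2 difference of 0.60 (95% interval 0.24 to 0.96, SE 0.15) came with an unadjusted limma p of 0.00571 and an adjusted p of 0.955. An exact two-sided permutation test gave p = 0.1, the smallest that 3 against 3 allows. These levels rest on 100 to 219 reads per library, 401 in all in WT and 619 in cKO. Of 7 tested genes of mesonephros and oviduct epithelium, given with the somatic lists, 6 had higher means in cKO and Emx2 a lower one. Over all tested genes 48.7% had a log2 fold change above 0. Foxj1 passed the level filter only through cKO, and Cldn3 and Wfdc2 mainly so, and the count of 6 partly follows from that. The part of these 7 genes in the Dnd1 difference was not tested.

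Rows that could share reads with Dnd1 were also read. The pseudogene Dnd1-ps held 0 to 2 reads in any library. Wdr55, on the opposite strand, shares 38 bases with Dnd1, and its level was 11.7, 11.6 and 17.8 FPKM in WT and 14.1, 14.0 and 12.7 FPKM in cKO, with overlapping groups. The sources used here do not say whether the authors counted by strand. Among 28 other tested genes within 1 Mb of Dnd1 the median log2 fold change was 0.01. Of these, 1 had cKO above WT and 1 below, against 4.20% and 3.67% of all tested genes.

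Dazl, which binds mRNA and promotes translation in germ cells, was the most abundant member. It lies on chromosome 17 from 50586421 to 50600648 on the minus strand (GRCm39, as are all gene positions that follow). Its level was 96.2, 79.9 and 132.6 FPKM in WT and 117.7, 130.1 and 102.5 FPKM in cKO. The WT libraries included both the lowest and the highest value, so the groups overlapped. The log2 fold change was 0.21 (SE 0.19, 95% interval −0.26 to 0.67, limma adjusted p = 0.955).

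Ddx4 encodes the VASA helicase of germ granules, on chromosome 13 from 112734867 to 112790342 on the minus strand. Its level was 31.5, 29.3 and 45.3 FPKM in WT and 33.7, 34.1 and 31.7 FPKM in cKO. WT replicate 3 stood above the other 5 libraries, which lay close together. The log2 fold change was −0.07 (SE 0.17, 95% interval −0.46 to 0.32, limma adjusted p = 0.978). Without WT replicate 3 it was 0.12, so its sign rests on that library.

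Nanos3, a zinc-finger partner of DND1 that keeps migrating germ cells alive, was far lower. It lies on chromosome 8 from 84900359 to 84911396 on the minus strand, and 2 microRNA genes, Mir181c and Mir181d, lie within it on the same strand. Its level was 0.565, 0.868 and 0.653 FPKM in WT and 1.03, 0.723 and 0.532 FPKM in cKO, from 17 to 31 reads per library. Only cKO replicate 1 reached 1 FPKM, and the groups overlapped. The gene was not tested, and without the level filter its log2 fold change was 0.05 (95% interval −0.34 to 0.44). The exact permutation test gave p = 0.7. Its relative Nanos1 was higher, at 16.2, 19.0 and 24.4 FPKM in WT and 17.7, 19.8 and 14.8 FPKM in cKO, while Nanos2, known from male germ cells, had 0 to 5 reads in any library.

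Pou5f1, which encodes the transcription factor OCT4, was the leading fetal factor. It lies on chromosome 17 from 35816929 to 35821674 on the plus strand. Its level was 9.78, 12.5 and 18.5 FPKM in WT and 16.1, 15.4 and 15.6 FPKM in cKO. The 3 cKO libraries stood within the WT range and much closer together, with means of 13.6 ± 4.48 and 15.7 ± 0.361 FPKM (SD, n = 3 each). The log2 fold change was 0.24 (SE 0.21, 95% interval −0.25 to 0.73, limma adjusted p = 0.955).

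Nanog, a homeobox factor of the same network, was close to the floor in the same libraries. It lies on chromosome 6 from 122684448 to 122691592 on the plus strand. Its level was 0.179, 0.257 and 0.137 FPKM in WT and 0.154, 0.238 and 0.120 FPKM in cKO, from 5 to 10 reads per library. For 5 reads, in cKO replicate 3, the exact 95% Poisson interval runs from 1.62 to 11.7 reads, which covers counting error only. The groups overlapped, and the exact permutation test gave p = 0.7. Pou5f1 exceeded Nanog by 48.5-fold to 135.2-fold in the 6 libraries, a range that rests on these 5 to 10 Nanog reads.

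Lin28a, whose protein binds let-7 precursors and blocks their maturation, came next to Dnd1 in level. It lies on chromosome 4 from 133730641 to 133746504 on the minus strand. Its level was 4.25, 4.40 and 6.97 FPKM in WT and 5.46, 5.81 and 4.68 FPKM in cKO. WT replicate 3 was again the highest, and the groups overlapped. The log2 fold change was 0.05 (SE 0.19, 95% interval −0.39 to 0.49, limma adjusted p = 0.984), and it turned to −0.06 without WT replicate 1, −0.04 without WT replicate 2, −0.01 without cKO replicate 2 and −0.02 after rescaling to TPM. Its paralog Lin28b stood lower in each library, and the ratio of Lin28a to Lin28b averaged 2.83 ± 0.561 for WT and 2.85 ± 0.585 for cKO (SD, n = 3 each).

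Sall4, a zinc-finger factor of the pluripotency network that is also needed in oocytes, stood near the level filter. It lies on chromosome 2 from 168590252 to 168609121 on the minus strand. Its level was 0.839, 0.769 and 1.09 FPKM in WT and 0.873, 1.27 and 1.14 FPKM in cKO, from 73 to 117 reads. It was tested because exactly 3 libraries reached 1 FPKM, namely WT replicate 3 and cKO replicates 2 and 3. The groups overlapped, with a log2 difference of 0.14 (95% interval −0.25 to 0.53, SE 0.16, limma adjusted p = 0.955).

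The 2 specification factors were low in each library. Prdm1 encodes BLIMP1, which represses the somatic programme in early germ cells and also acts in other cell types, and lies on chromosome 10 from 44313170 to 44404548 on the minus strand. Its level was 0.618, 0.408 and 0.468 FPKM in WT and 0.455, 0.348 and 0.599 FPKM in cKO, from 57 to 108 reads. Tfap2c encodes the transcription factor AP-2γ and lies on chromosome 2 from 172387599 to 172400542 on the plus strand. Its level was 0.0620, 0.0934 and 0.125 FPKM in WT and 0.0777, 0.0642 and 0.117 FPKM in cKO, from 4 to 9 reads. Both overlapped between the groups, with exact permutation p = 0.7 and 0.8. Unlike the abundant members, Prdm1 was not highest in WT replicate 3 among the WT libraries.

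The members were also read beside other oocyte genes. The oocyte reference list holds 20 genes of oocyte transcription, meiosis and the zona, none of them a member, and 19 were tested. Of these 0 rose and 0 fell, and their median log2 fold change was 0.04. Their mean log2(FPKM + 1) was 5.45, 5.67 and 6.18 in WT replicates 1, 2 and 3 and 5.80, 5.90 and 5.71 in cKO. WT replicate 3 was the highest WT library for this list and for all 6 tested members, and for 7 of the 10 members. From WT replicate 1 to WT replicate 2 the list mean rose, as did Dnd1, Pou5f1 and Lin28a, while Dazl, Ddx4 and Sall4 fell. The part of oocyte content in the members' values was not tested.

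Members were then expressed as log2(FPKM + 1) minus the oocyte reference mean of the same library. For Dnd1 this difference was −3.16, −3.05 and −3.39 in WT and −2.69, −2.60 and −2.61 in cKO, again without overlap. For Pou5f1 it was −2.02, −1.92 and −1.89 in WT and −1.70, −1.87 and −1.65 in cKO, so the groups, which overlapped in FPKM, came apart by a narrow margin. For Dazl, Ddx4, Lin28a and Sall4 the groups overlapped on this scale. In limma on these relative values Dnd1 had a log2 fold change of 0.57 and Pou5f1 of 0.20, and 0 of all genes passed. The SE of Dnd1 was 0.265 on this scale and its unadjusted p was 0.05009, so it was not among the 151 genes with an unadjusted p under 0.05. For Pou5f1 the SE was 0.233 and the unadjusted limma p was 0.399. The share of all genes whose groups come apart on this scale was not computed.

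**Figure D3:**
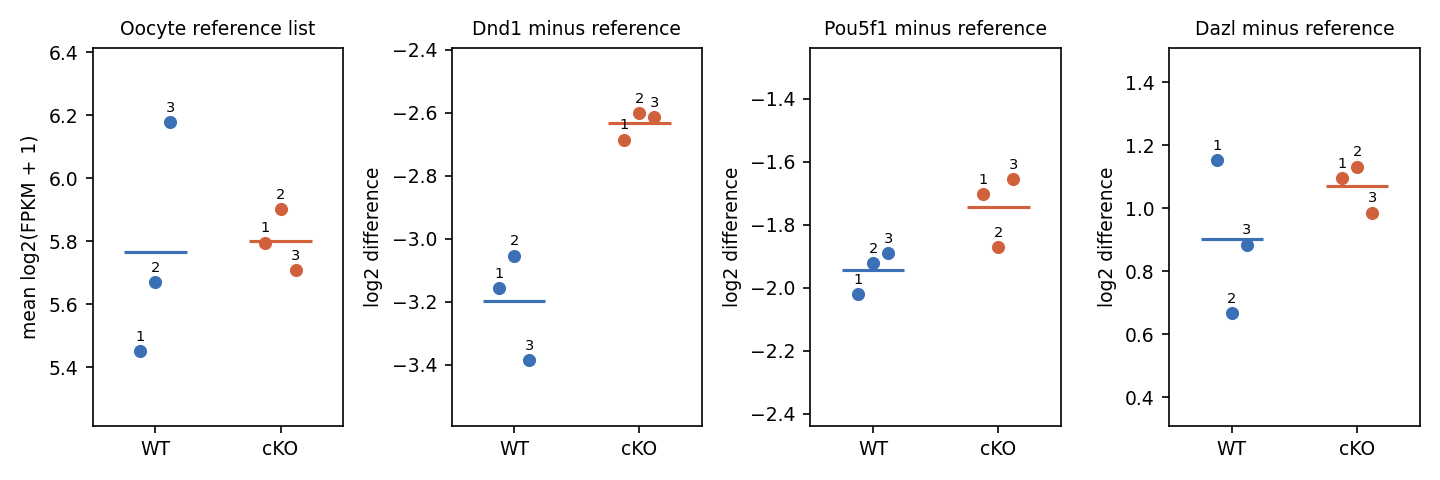
Left, mean log2(FPKM + 1) of the tested oocyte reference genes per library. The other panels show log2(FPKM + 1) of Dnd1, Pou5f1 and Dazl minus that mean, with WT in blue, cKO in orange, replicate numbers beside the points and bars at group means. All panels span the same height. The reference runs from 5.45 to 6.18 in WT, and Dnd1 keeps a gap between the groups, from −3.05 in WT to −2.69 in cKO.

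Other genes of these programmes were taken from lists set by name. In the pluripotency network list 12 of 20 genes were tested, 0 rose and 0 fell, 7 had a higher and 5 a lower mean in cKO, and the median log2 fold change was 0.04. Of all tested genes 48.7% had a log2 fold change above 0. The most abundant were Tcl1, a cofactor of AKT signalling, at 51.9 ± 11.3 FPKM in WT and 55.97 ± 5.36 in cKO, and Dppa5a, an RNA-binding protein of pluripotent cells, at 30.8 ± 10.3 and 39.2 ± 7.08 FPKM (SD, n = 3 each). Those with the smallest p were Dppa4 (log2 fold change 0.38), a chromatin protein, Nr0b1 (0.32), an orphan nuclear receptor also found in somatic gonad cells, and Klf4 (−0.35), a zinc-finger factor. Nr0b1 had cKO above WT without overlap, 1 of 12 against 4.20% of all tested genes. Sox2, the usual partner of POU5F1, averaged 0.0769 FPKM in WT and 0.0613 in cKO, and Fgf4 and Tdgf1 were listed at 0 in all 6 libraries.

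Primordial germ cell genes gave 10 tested of 15, with 0 risen, 0 fallen and a median log2 fold change of 0.21. Dppa3, which protects maternal DNA methylation, led at 402.8 ± 86.9 FPKM in WT and 495.4 ± 77.1 in cKO. Kit, the stem cell factor receptor, followed at 157.9 ± 31.8 and 141.2 ± 15.4 FPKM (SD, n = 3 each). Ifitm3 (log2 fold change 0.41), a membrane protein of early germ cells, had the smallest p. Its groups did not overlap, with cKO above WT, 1 of 10 against 4.20% of all tested genes. Prdm14, a specification partner of PRDM1, was at 0.0221 FPKM in WT replicate 1 and listed at 0 in the other 5 libraries, and Tbxt (row T) was listed at 0 in all libraries.

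Post-migratory germ cell genes, switched on like Ddx4 and Dazl once germ cells reach the gonad, ranged widely in level. All 15 that were found of 16 were tested, 0 rose and 0 fell, and the median log2 fold change was 0.01. Mael, a piRNA pathway protein, was at 137.8 ± 42.9 FPKM in WT and 152.5 ± 22.2 in cKO, and Sycp3, of the meiotic chromosome axis, at 124.9 ± 41.7 and 121.6 ± 21.6 FPKM (SD, n = 3 each). Brdt, a bromodomain protein and the lowest of the list, averaged 2.56 FPKM in each group. Those with the smallest p were Hormad1 (0.70), Tex19.1 (0.26) and Tex101 (0.29), all with overlapping groups.

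Partners of DND1 and NANOS3 were read from the NANOS, PUM and CCR4-NOT list. Of its 15 tested genes 0 rose and 0 fell, 13 had a lower mean in cKO and 2 a higher one, and the median log2 fold change was −0.07. Over all tested genes 48.7% had a log2 fold change above 0. These 15 genes were read in the same 6 libraries, and the count was not tested. Cnot1, the scaffold of the deadenylase, averaged 80.6 ± 5.27 FPKM (SD, n = 3) in WT against 65.2 ± 10.3 FPKM (SD, n = 3) in cKO (log2 fold change −0.31, limma adjusted p = 0.955). Cnot10, another subunit, stood at 33.5 ± 0.779 and 32.3 ± 1.77 FPKM. Cnot6l, a catalytic subunit (−0.18), and Pum2, an RNA-binding partner of NANOS (−0.12), had cKO below WT without overlap, 2 of 15 against 3.67% of all tested genes.

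In the LIN28 and let-7 list 9 of 10 genes were tested, 0 rose and 0 fell, 7 had a lower mean in cKO, and the median log2 fold change was −0.14. The share of all tested genes with a log2 fold change above 0 was 48.7%, and the count of 7 was not tested. Trim71, itself a let-7 target, stood at 14.5 ± 1.77 FPKM in WT and 10.9 ± 1.78 in cKO (log2 fold change −0.39, limma adjusted p = 0.955). Dicer1, which cuts microRNA precursors, stood at 34.3 ± 3.01 and 28.6 ± 3.18 FPKM. It had cKO below WT without overlap, 1 of 9 against 3.67% of all tested genes. Igf2bp2, an mRNA-binding let-7 target, stood at 46.3 ± 5.67 and 43.2 ± 1.16 FPKM (SD, n = 3 each), and Tut4, which adds uridine to let-7 precursors, had a log2 fold change of −0.29.

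**Figure D4:**
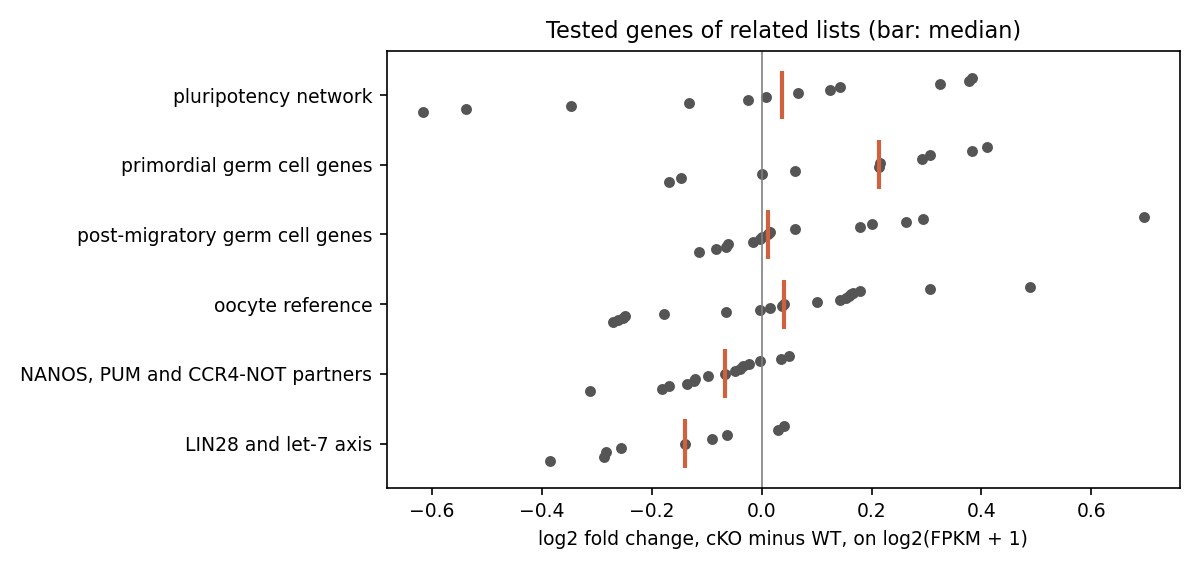
Log2 fold change, cKO minus WT, of each tested gene (grey points, sorted within a list) of 6 lists, with the list median as an orange bar. Medians lie between −0.14 for the LIN28 and let-7 list and 0.21 for primordial germ cell genes, and no gene passed the adjusted threshold.

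Somatic and blood genes differed between libraries within groups, which bears on any whole-ovary level. WT replicate 1 stood apart: its summed level was 203.4 FPKM for 10 endothelial genes (Pecam1 and others) against 49.4 to 73.5 in the other 5, 94.7 FPKM for 8 pericyte and smooth muscle genes (Rgs5) against 18.8 to 28.4, and 1416 FPKM for 10 stroma and theca genes (Nr2f2) against 414.4 to 671.7. Its 8 surface epithelium genes (Upk3b) summed to 235.6 FPKM against 535.9 to 648.8. In the 12 pregranulosa genes (Foxl2) the range was 747.2 to 970.97 FPKM in WT and 799.4 to 945.9 in cKO. The 8 erythroid genes (Hba-a1) reached 13689 FPKM in cKO replicate 2 against 405.1 to 1233 elsewhere. Macrophage genes (8, Adgre1) spanned 21.4 to 30.0 FPKM in WT and 20.4 to 26.7 in cKO, and testis somatic genes (6, Sox9) 1.79 to 5.61 and 2.44 to 2.91. No gene of these lists was listed at 0 in all libraries, and their part in the members' values was not tested.

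Mesonephros and oviduct epithelium genes had higher means in cKO in 6 of 7 tested cases, and Emx2 had a lower one (log2 fold change −0.13). Of all tested genes 48.7% had a log2 fold change above 0. The summed level of the 8 genes was 76.7 to 92.4 FPKM in WT and 90.3 to 106.3 in cKO, most of it from Emx2 and Epcam, whose groups overlapped. Of the 7 tested genes 0 passed the adjusted threshold, and the median log2 fold change was 0.59, against −0.01 over all tested genes. An unadjusted p under 0.05 was reached by 4 of the 7, against 3.04% of all tested genes, and 3 of the 7 had cKO above WT without overlap, against 4.20%. Those 3 were Cldn3, a tight junction protein, at 0.591, 0.866 and 1.09 FPKM in WT and 4.15, 2.63 and 3.38 FPKM in cKO (log2 fold change 1.24), Pax8, an epithelial transcription factor (0.75), and Foxj1, a regulator of motile cilia (0.59). The fourth, Wfdc2, a secreted epithelial protein, had a log2 fold change of 1.56 with overlapping groups. Foxj1 passed the level filter only through the cKO libraries, at 1.12, 1.03 and 1.23 FPKM, against 0.278 to 0.581 FPKM in WT. Cldn3 and Wfdc2 passed it mainly through cKO, so the counts above and the median partly follow from the filter. Pax2, the first gene of the list, was below the level filter, at 0.0416 FPKM in WT and 0.0959 in cKO on average. Within cKO, Cldn3, Pax8, Foxj1 and Wfdc2 were each lowest in replicate 2, where Dnd1 was highest. In WT replicate 1, where Dnd1 was lowest, Pax8 and Foxj1 were at their WT maximum and Cldn3 and Wfdc2 at their WT minimum. These 4 genes were chosen after their values were seen. An order over 3 libraries per group cannot decide the part of this tissue in the Dnd1 difference, which was not tested.

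Members were refitted with 1 library left out at a time. Dnd1 kept a log2 fold change between 0.46 (without WT replicate 1) and 0.71 (without WT replicate 3). Pou5f1 ranged from 0.04 without WT replicate 1 to 0.47 without WT replicate 3, and Dazl from 0.04 without WT replicate 2 to 0.40 without WT replicate 3. Sall4 stayed between 0.08 and 0.22. No member passed the adjusted threshold in any of these fits.

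**Figure D5:**
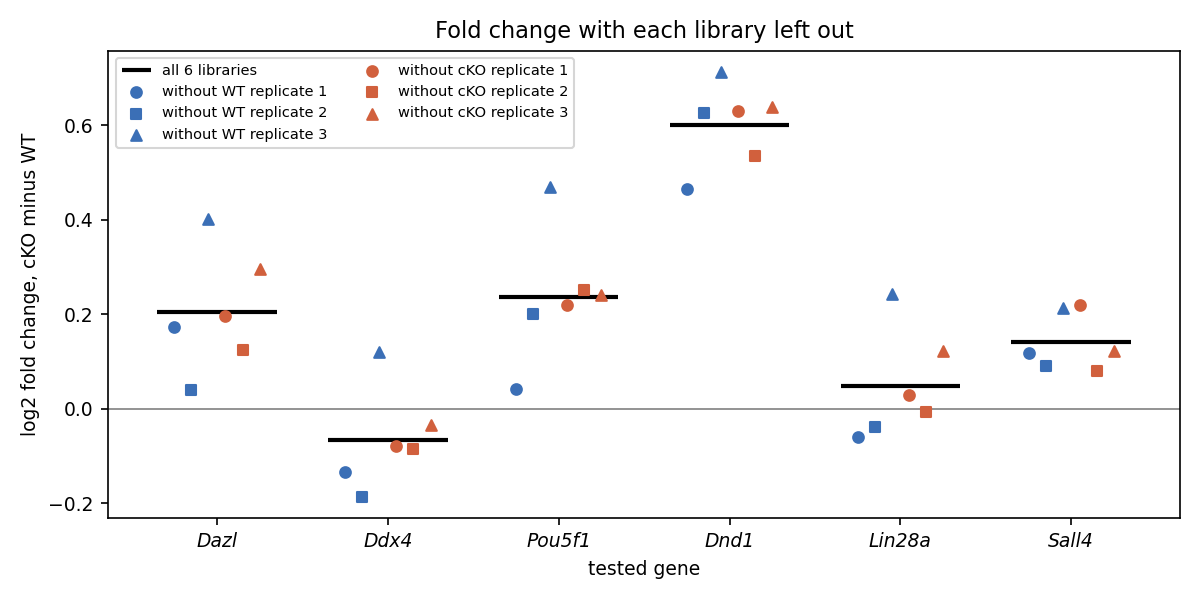
Log2 fold change of the 6 tested genes with all libraries (black bars) and with each library left out (WT in blue, cKO in orange, with circle, square and triangle for replicates 1, 2 and 3). Leaving out WT replicate 3 gives the highest value for Dazl, Ddx4, Pou5f1, Dnd1 and Lin28a, and moves Ddx4 above 0. Lin28a falls below 0 without WT replicate 1, WT replicate 2 or cKO replicate 2.

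Genes whose profile was most like a member were found among 8841 protein-coding genes with a mean of at least 5 FPKM, by the root mean square difference of centred log2(FPKM + 1) over the 6 libraries. Closest to Ddx4 were Kdm1b (0.04), a histone demethylase of oocytes, Smc1b (0.04), a meiotic cohesin, and Eef1aknmt (0.05). Closest to Dazl were Tcl1 (0.06), Mael (0.06) and Yeats4 (0.07). Closest to Pou5f1 were Xlr4b (0.04), Th (0.05) and Enho (0.07). Closest to Dnd1 were Cystm1 (0.04), Cst8 (0.06) and Rhox8 (0.10). Cystm1 is also a neighbour, 361 kb from Dnd1, and is the 1 neighbour counted above with cKO above WT. Its level was 3.03, 4.27 and 5.27 FPKM in WT and 6.51, 7.22 and 6.36 FPKM in cKO (log2 fold change 0.59, SE 0.17, limma adjusted p = 0.955).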

How the data were processed

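Total ovary RNA of 3 WT and 3 cKO samples was sequenced. The authors deposited FPKM values, and HISAT2 2.0.5 with builds mm10 and GRCm39 is named per the submitters' processing notes. The table's coordinates use GRCm39 accessions. No counter, annotation release or strand setting is named in the sources used here. Groups and replicate numbers came from titles and columns from descriptions.

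FPKM times gene length, divided by 1 step per library, gave whole reads within 0.05 for 100% of values above 0. These summed to 16800421 to 19565275 reads per library. Genes with at least 1 FPKM in at least 3 libraries were fitted as log2(FPKM + 1) with limma 3.58.1 in R 4.3.3. The fit was two-sided, with trend, and Benjamini-Hochberg adjusted over all 14589 genes at a threshold of 0.05. Simulated data with a fixed spread for all genes were also fitted, which does not show what could be detected in these libraries. Alternatives were other pseudocounts (0.1, 0.5), filters (none, 5 FPKM), scalings, voom, weights, a replicate block and leaving out each library. Median-of-ratios scaling left the members' log2 fold changes almost as they were (Dazl 0.21, Dnd1 0.60), so it adds no separate check.

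The members and lists were chosen with earlier results of these data known. Named genes are the members, Bcas2, in each list those with the 3 smallest p and the 2 highest levels, the first gene of each somatic list, and the 3 most similar profiles of 4 members. Sox2, Fgf4, Tdgf1, Prdm14, Tbxt, Brdt, relatives or neighbours of members and the 6 further mesonephros and oviduct genes were named outside this rule, after their values were seen. Oosp1 of the oocyte reference list fell below the filter and Gcna was not matched. Promoters came from RefSeq (GRCm38.p6), by symbol, and were not placed on GRCm39.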

Additional observations from a re-analysis of the deposited data

How the results depend on the processing

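Each of 18 alternatives was applied to the counts, the 6 tested members and the medians of their roles, except that Sall4 had no value with the filter at 5 FPKM. The count of genes past the adjusted threshold was 0 in the fit as reported, 1 with array weights (Mir6999) and between 0 and 1 with a library left out (1, Pcna-ps2, without cKO replicate 2), both named after their values were seen. No member passed under any alternative (smallest adjusted p = 0.197, for Dnd1 with array weights, whose range over alternatives was 0.197 to 1.00). Genes at an unadjusted p under 0.05 numbered 443 as reported, 1990 with array weights, 1147 without a filter, 254 with the filter at 5 FPKM, 151 relative to the oocyte reference, and 253 to 1056 with a library left out. Direction was kept under all alternatives run for Dazl, Dnd1, Pou5f1 and Sall4, and Dnd1 ranged from 0.46 to 0.73. Ddx4 turned to 0.12 with array weights and ranged from −0.19 to 0.12 with a library left out. Lin28a turned to −0.019 after rescaling to TPM and ranged from −0.059 to 0.24 with a library left out. The cause was not tested. The median of the RNA regulators (Ddx4, Dazl, Dnd1) was 0.21 as reported, 0.46 with array weights and 0.04 to 0.40 with a library left out, and that of the pluripotency factors (Pou5f1, Lin28a, Sall4) 0.14 and 0.04 to 0.24. Rescaling to TPM moved the median of all genes to −0.08.

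Same-numbered WT and cKO libraries had correlations of deviations from their group means of 0.22, 0.01 and −0.03. The labels state no pairing, and with so few libraries per group these correlations cannot exclude one. With a replicate block 0 genes passed, 432 had an unadjusted p under 0.05, and the log2 fold change of Dnd1 was 0.60 (limma adjusted p = 0.997). At 4 to 31 reads per library, Nanos3, Nanog and Tfap2c could show only large differences.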

Other observations

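The ratio of Dazl to Ddx4 did not overlap between the groups, and it was computed after their values were seen. Dazl exceeded Ddx4 by 3.05-fold, 2.73-fold and 2.93-fold in WT replicates 1, 2 and 3 and by 3.49-fold, 3.82-fold and 3.24-fold in cKO, without overlap (2.90 ± 0.163 and 3.52 ± 0.291, SD, n = 3 each). Neither gene alone separated the groups. Dnd1 relative to Ddx4 was 0.124, 0.175 and 0.131 in WT and 0.227, 0.260 and 0.238 in cKO, also without overlap. The ratio of Dazl to Pou5f1 overlapped, at 7.81 ± 1.80 in WT and 7.46 ± 0.958 in cKO. These ratios were not tested, and the share of all gene pairs whose ratio does not overlap was not computed. Among single tested genes the groups did not overlap for 7.88%, Dnd1 included.

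Spread within WT exceeded that within cKO for the abundant members. The coefficient of variation of FPKM was 33.0% in WT and 2.30% in cKO for Pou5f1, 24.6% and 3.90% for Ddx4, 29.4% and 10.9% for Lin28a, and 26.2% and 11.8% for Dazl. The oocyte reference mean had an SD of 0.37 in WT and 0.10 in cKO (log2 scale, n = 3 each), and the difference in spread was not tested.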
